A study of Mus musculus with 6 samples.

Results

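The Pellino family holds 3 mouse genes, Peli1, Peli2 and Peli3, and all 3 were found by symbol among the 23253 genes listed in any of 6 testis RNA tables. Peli2 was put forward because it differed between the labelled groups of these same libraries with little spread, so its values in that contrast are a description and carry no test. Peli1 and Peli3 entered by family name.

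Pellino proteins are RING-type E3 ubiquitin ligases named after the fly protein that binds the kinase Pelle. Each pairs a forkhead-associated fold, which docks on phosphorylated partners such as the IRAK kinases, with a RING-like domain that passes ubiquitin to them. The IRAKs relay signals from Toll-like receptors and the interleukin-1 (IL-1) receptor, and the ubiquitin chains help to assemble the complexes that activate NF-kB and MAP kinases. In mice Peli1 is known for signalling below the Toll-like receptors that sense viral and bacterial products and as a brake on T cells, Peli2 for priming the NLRP3 inflammasome in macrophages, and Peli3 for restraining antiviral Toll-like receptor signals.

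Poly(A) RNA came from whole testes of C57BL/6 mice aged 8 months, in 3 libraries labelled L3mbtl2 cKO (conditional knockout) and 3 labelled control. L3MBTL2 is a Polycomb-group protein, and the comparison asks how its loss alters the testis transcriptome. The labels name neither the Cre driver nor the cells in which the gene was deleted, say nothing of alleles carried by the controls, and do not say which animal each library came from. The p-values therefore cover library-to-library spread, which may be technical. All 85 markers of 10 testis cell types were listed, and those of elongating spermatids alone summed to 27118 to 29612 FPKM (fragments per kilobase of transcript per 1000000 fragments) in the libraries labelled cKO and 18756 to 26281 in those labelled control.

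The group labels are in doubt. L3mbtl2 itself, the targeted gene, reached 1030, 1105 and 1031 expected counts under the label cKO, against 658, 704.92 and 673 under the label control. Its listed transcript length differed as well, at 3489 to 3498 bases in the libraries labelled cKO and 2652 to 2838 bases in those labelled control. Mean FPKM, which is divided by that length, was 1.15 times as high under the label cKO, against 1.56 times for the unscaled count. Neither measure overlapped between the groups. The table names also give each library the genotype that its sample title does not. Every direction below follows the titles and would turn if they were exchanged. Expected counts summed to between 17689205 and 18822050 per library. Among the libraries labelled control, replicate 3 stood apart, with a Leydig marker sum of 10722 FPKM, against 2189 to 4389 in replicates 1 and 2, while replicate 2 correlated with the libraries labelled cKO at 0.98 across genes in log2 CPM (counts per 1000000).

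Peli2 was the dominant Pellino transcript of these testes. Its FPKM was 54.07, 57.48 and 64.55 in the libraries labelled cKO and 38.78, 31.19 and 44.01 in those labelled control. Those labelled cKO were all higher, and the groups did not overlap. Per length, the order Peli2, Peli1, Peli3 held in each of the 6 libraries, and no neighbours in that order came near each other. Peli2 made up 93.2 ± 1.03% of the summed Pellino FPKM in the libraries labelled cKO and 88.0 ± 0.864% in those labelled control (SD, n = 3 each). It ranked above 91.8 to 93.2% of the 23253 genes by FPKM in the libraries labelled cKO and above 86.9 to 90.2% in those labelled control.

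**Figure D1:**
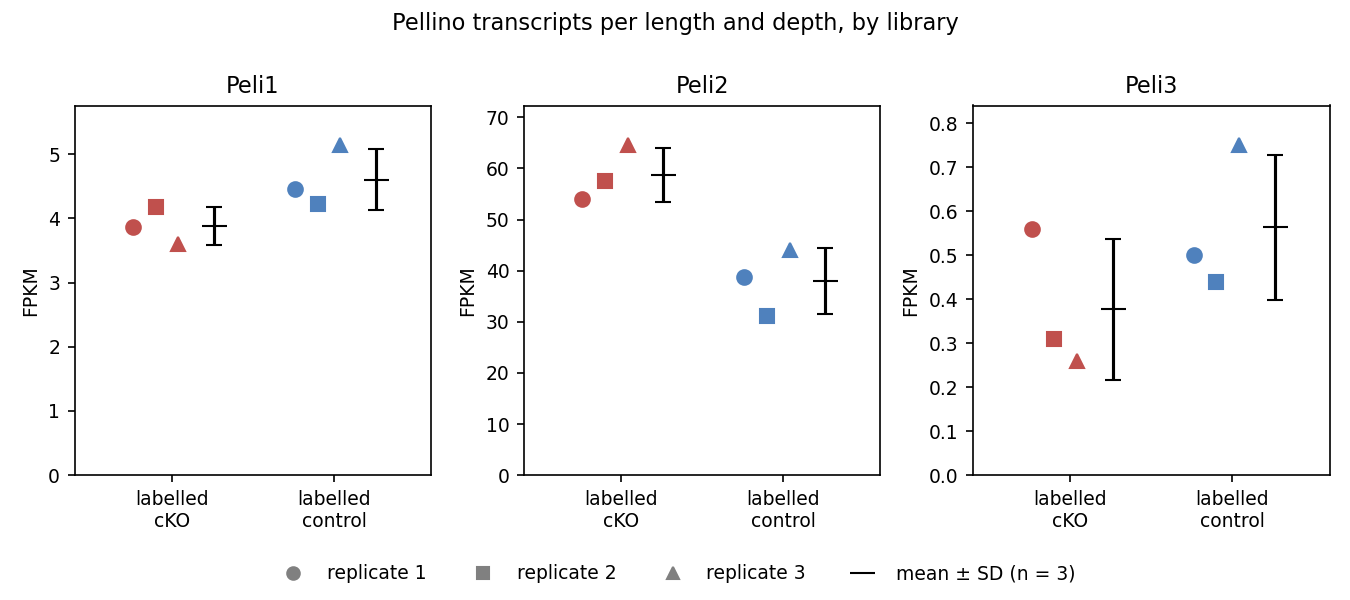
FPKM of Peli1, Peli2 and Peli3 on separate linear axes from 0, with 1 point per library and the mean ± SD of 3 libraries beside each group. Peli2 lies between 54.07 and 64.55 in the libraries labelled cKO, above the 31.19 to 44.01 in those labelled control, while Peli1 stays between 3.60 and 5.14 and Peli3 between 0.26 and 0.75.

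The start-site windows of the 3 genes are shown because paralogs of 1 family differed this much in level and Peli2 alone was separated between the groups by count. Each runs 5′ to 3′ from 250 bases before to 50 after a transcription start listed by RefSeq on GRCm38.p6. The windows are chr14:48120619-48120918 (plus strand) for Peli2, chr11:21091074-21091373 (plus strand) for Peli1 and chr19:4943078-4943377 (minus strand) for Peli3. The gene spans of Peli2 and Peli1 begin inside their windows, at 48120777 and 21091283, before the start used. All marked Peli2 matches therefore lie inside the gene span. A second listed Peli3 start is not shown. Capitals mark GGGCGG, the GC box bound by Sp1-family factors, on either strand.
Peli2: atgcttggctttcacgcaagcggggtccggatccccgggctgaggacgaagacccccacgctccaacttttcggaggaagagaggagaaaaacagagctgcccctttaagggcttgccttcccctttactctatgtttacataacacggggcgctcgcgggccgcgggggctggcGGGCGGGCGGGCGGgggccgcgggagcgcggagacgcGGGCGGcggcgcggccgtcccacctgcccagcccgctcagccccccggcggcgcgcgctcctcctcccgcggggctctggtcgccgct
Peli1: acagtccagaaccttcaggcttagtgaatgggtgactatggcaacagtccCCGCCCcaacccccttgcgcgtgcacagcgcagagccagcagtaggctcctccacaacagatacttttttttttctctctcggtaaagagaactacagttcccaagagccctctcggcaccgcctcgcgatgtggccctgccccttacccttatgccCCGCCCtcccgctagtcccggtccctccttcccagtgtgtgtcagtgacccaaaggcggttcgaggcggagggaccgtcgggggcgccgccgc
Peli3: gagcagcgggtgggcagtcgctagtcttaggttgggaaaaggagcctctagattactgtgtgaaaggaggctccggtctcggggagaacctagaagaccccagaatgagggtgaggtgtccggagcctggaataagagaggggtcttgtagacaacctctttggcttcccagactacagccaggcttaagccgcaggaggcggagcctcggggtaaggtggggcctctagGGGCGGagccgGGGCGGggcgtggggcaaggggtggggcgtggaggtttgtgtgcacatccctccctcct
Peli2 held 4 matches, of which 3 form a run where each overlaps the next, while Peli1 and Peli3 held 2 each. A match was present in 35.7% of all 32851 windows of this length. GC content was 71.7% for Peli2, 61.7% for Peli1 and 62.0% for Peli3, against a median of 52.7% over all windows. Other motifs were searched on both strands and had no match in these 3 windows. The E-box of MGA and MAX (CACGTG) was present in 7.15% of all windows and an E2F motif (GCGGGAA) in 4.60%. A TATA box (TATAAA) was in 13.6%. The CRE of CREB and CREM (TGACGTCA) was in 1.79%. A relaxed NF-kB motif, GGG and TTCC with any 3 bases between them, was in 5.56%. No match says only that these letters are not in these windows.

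Peli2 (Entrez 93834) lies on mm10 chromosome 14 from 48120777 to 48281578, and the tables list 2 transcripts for it, a RefSeq one and a model assembled by the submitters' pipeline. Its expected counts were 2693, 2729 and 2978 in the libraries labelled cKO, against 1976, 1787 and 2019 in those labelled control. Scaled by TMM (trimmed mean of M-values, which adjusts library sizes), these became 149, 150.3 and 165 CPM in the libraries labelled cKO and 105, 98.3 and 108 CPM in those labelled control. The lowest library labelled cKO stood well above the highest labelled control. The log2 fold change, labelled cKO minus labelled control, was 0.58 (SE 0.09), or 1.49-fold, and 2.99% of the 18269 genes tested had a larger one. Of all those genes, 18% were higher without overlap in the libraries labelled cKO, and since the gene was put forward on this contrast nothing is read from its place among them.

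Peli2 was put forward partly for its small spread in these libraries, so its spread too is given as a description from which nothing is read. The SD of its log2 CPM was 0.08 in the libraries labelled cKO and 0.07 in those labelled control. Over 1477 genes within 0.5 log2 units of its level, the median SD was 0.06 in the libraries labelled cKO and 0.19 in those labelled control. Leaving out 1 library at a time kept the log2 fold change between 0.53 and 0.61.

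FPKM of Peli2 was more scattered than its count, because the listed length by which it is divided also varied. That length was 2691, 2576 and 2524 bases in the libraries labelled cKO and 2878, 3208 and 2633 bases in those labelled control. Its means were 2597 ± 85.6 and 2906 ± 288 bases (SD, n = 3 each), in the same order, and the groups overlapped, since the shortest in a library labelled control was below the longest in one labelled cKO. The coefficient of variation among the libraries labelled control was 17.0% for FPKM and 6.40% for the unscaled count. Mean FPKM was 1.54 times as high in the libraries labelled cKO as in those labelled control, against 1.45 times for the unscaled count. RSEM weights a gene's length by the share of each transcript, so the mix of the 2 Peli2 transcripts, as estimated, differed between libraries. GENCODE M21 lists 8 Peli2 transcripts, 3 of them protein coding, but the sources used here do not give which of the 2 counted is the shorter. Peli1 and Peli3 have 1 transcript each in the tables, with fixed lengths of 3501 and 1937 bases.

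**Figure D2:**
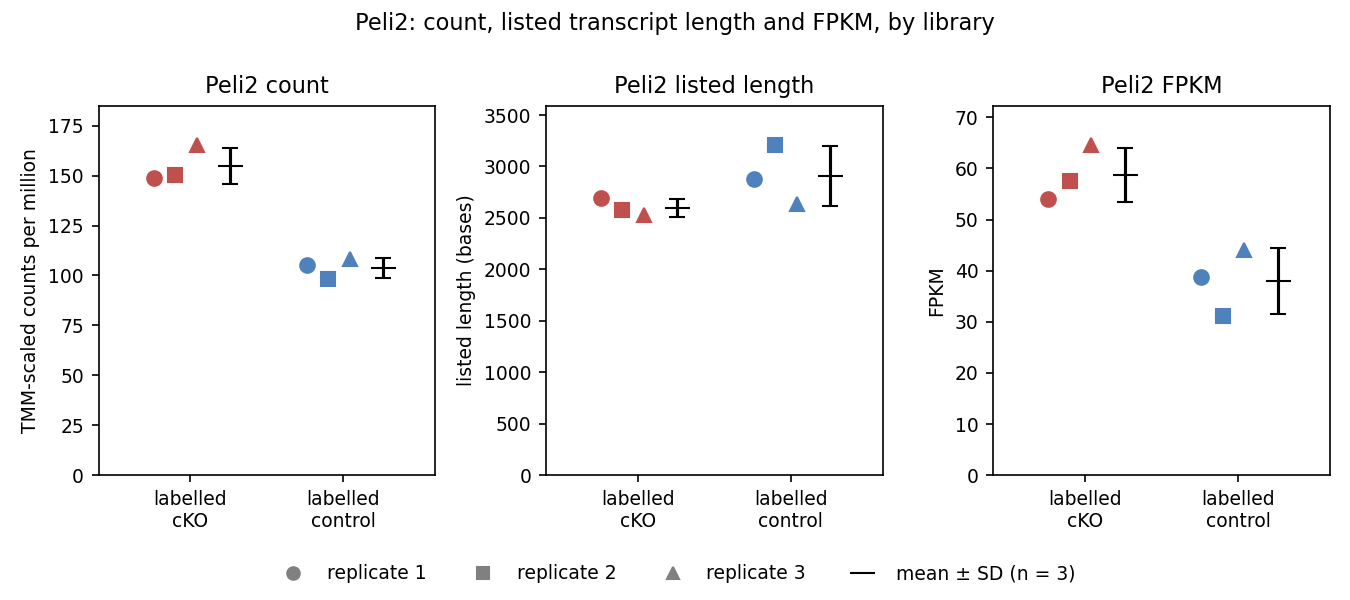
Peli2 as TMM-scaled CPM, listed transcript length in bases and FPKM, with 1 point per library and the mean ± SD of 3 libraries, on linear axes from 0. Counts and FPKM separate the libraries labelled cKO from those labelled control, while the listed lengths overlap, at 2524 to 2691 bases in those labelled cKO and 2633 to 3208 bases in those labelled control.

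Peli1 was about an order of magnitude lower and did not pass the test. Peli1 (Entrez 67245, chromosome 11, 21091283 to 21150327) was given 251, 271 and 232 expected counts in the libraries labelled cKO and 277, 264 and 315 in those labelled control. These overlap between the groups, with the highest library labelled cKO above the lowest labelled control. TMM-scaled levels overlapped too, at 13.9 ± 1.02 CPM in the libraries labelled cKO and 15.4 ± 1.30 CPM in those labelled control (SD, n = 3 each). Its log2 fold change was -0.15 (SE 0.14), with an adjusted p of 0.498 in edgeR's quasi-likelihood test over all 18269 genes. That test called 0% of genes in either direction, while 8.85% were higher and 18.8% lower at an unadjusted p under 0.05, and DESeq2 called 0.405% higher and 7.66% lower. FPKM of Peli1 was 3.86, 4.18 and 3.60 in the libraries labelled cKO and 4.45, 4.22 and 5.14 in those labelled control. These do not overlap, by a gap between 4.18 and 4.22, and an exact two-sided permutation test on FPKM gave p = 0.1, the smallest that 3 against 3 allows, against an exact p of 0.3 on TMM log2 CPM.

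Peli3 was barely read. Peli3 (Entrez 240518, chromosome 19, 4929717 to 4943127) was given 20, 11 and 9 expected counts in the libraries labelled cKO and 17, 15 and 25 in those labelled control. Its FPKM was 0.56, 0.31 and 0.26 in the libraries labelled cKO and 0.50, 0.44 and 0.75 in those labelled control, with the groups interleaved. The log2 fold change was -0.47 (SE 0.41) with an adjusted p of 0.449 in edgeR, and an exact two-sided permutation test on TMM log2 CPM gave p = 0.3. The fold change moved with single libraries, to -0.88 without cKO replicate 1 and -0.23 without control replicate 3.

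Within the family, Peli2 took a larger part in the libraries labelled cKO. Peli2 FPKM was 14.0, 13.8 and 17.9 times that of Peli1 in the libraries labelled cKO and 8.71, 7.39 and 8.56 times in those labelled control. The groups did not overlap, and a ratio within a library does not depend on how libraries are scaled. The difference of the mean log2 ratios was 0.88, or 0.72 with expected counts in place of FPKM. It inherits the choice of Peli2 and is not tested. Peli1 made up 6.20 ± 0.817% of the summed Pellino FPKM in the libraries labelled cKO and 10.7 ± 0.887% in those labelled control, and Peli3 0.613 ± 0.305% and 1.29 ± 0.188%, in the same order (SD, n = 3 each).

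Genes beside the members on the chromosome were measured too. The nearest listed gene below Peli2, 177 kb away, was 4930447J18Rik, at 4.81, 4.37 and 7.0 FPKM in the libraries labelled cKO and 2.96, 2.71 and 2.98 in those labelled control. The groups did not overlap, and the log2 fold change was 1.01 (SE 0.26, edgeR adjusted p = 0.166). On the other side, 165 kb away, Tmem260 lay the opposite way, at 2.71, 2.95 and 1.92 FPKM in the libraries labelled cKO and 4.47, 3.48 and 3.64 in those labelled control (log2 -0.47, SE 0.20, edgeR adjusted p = 0.175). Gm6498, a RefSeq gene inside the Peli2 span, was listed at no more than 0.28 FPKM and was too low to test. Beside Peli1, Lgalsl (galectin-related) had a log2 fold change of -0.88 and Vps54, a tethering factor of retrograde vesicle traffic, -0.25, with edgeR adjusted p of 0.174 and 0.236. Next to Peli3, Dpp3, a dipeptidyl peptidase, was only 1.43 kb away and far more abundant, at 36.2 ± 2.80 FPKM in the libraries labelled cKO and 35.8 ± 1.29 in those labelled control (SD, n = 3 each). Mrpl11, a mitochondrial ribosomal protein gene on the other side of Peli3, was at 12.5 ± 0.272 and 11.7 ± 1.02 FPKM, in that order, and neither passed (edgeR adjusted p = 0.423 and 0.304).

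Marker levels of several cell types differed between the groups, and Peli2 was set beside them. Summed over 8 round spermatid markers, FPKM was 1528, 1559.6 and 1497 in the libraries labelled cKO and 1324, 1423 and 1086 in those labelled control. Over 13 Sertoli markers the sum was 765, 771 and 731 in the libraries labelled cKO and 1399, 983 and 2515 in those labelled control, and over 10 Leydig markers it was 1534 to 1696 and 2189 to 10722, in the same order. Round spermatid sums were thus higher and Sertoli and Leydig sums lower in the libraries labelled cKO, with no overlap. In bulk tissue, fewer cells of a type and less RNA per cell cannot be told apart. Median log2 fold changes were 0.35 for round spermatid, 0.37 for elongating spermatid and 0.28 for spermatocyte markers, whose members were all positive, against 0.58 for Peli2. Without control replicate 2 these medians were 0.48, 0.50 and 0.43, in the same order, against 0.56 for Peli2. Without control replicate 3 they were 0.23, 0.23 and 0.16, against 0.61 for Peli2. Spermatogonial markers had a median of -0.44 with 7 of 8 negative.

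Among the libraries labelled control, Peli2 rose from replicate 2 to replicate 1 to replicate 3, at 98.3, 105 and 108 CPM. Their Sertoli and Leydig sums rose in the same order, while the round spermatid sum fell. Between the groups, Peli2 was higher where the Sertoli and Leydig sums were lower. Replicate 2 was nearest the libraries labelled cKO in all 3 sums, and replicate 3 was farthest from them. An order of 3 libraries is given as a description only. Divided by the round spermatid sum of its own library, Peli2 was 97.4, 96.4 and 110.4 CPM per 1000 marker FPKM in the libraries labelled cKO and 79.3, 69.1 and 99.6 in those labelled control, where replicate 3 overlapped with the libraries labelled cKO. The log2 difference was then 0.31. Per elongating spermatid markers it was 0.29 with overlap, and per spermatocyte markers 0.36 without. These ratios set TMM-scaled CPM over FPKM sums without TMM scaling, so the scaling does not cancel within a library. Unscaled, Peli2 was 143 CPM in replicate 1 labelled cKO and 114 CPM in replicate 3 labelled control. Their spermatocyte sums were 3202 and 2331 FPKM, in the same order, so with unscaled CPM the spermatocyte ratios overlapped as well. The part of cell composition in the Peli2 difference was not tested.

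**Figure D3:**
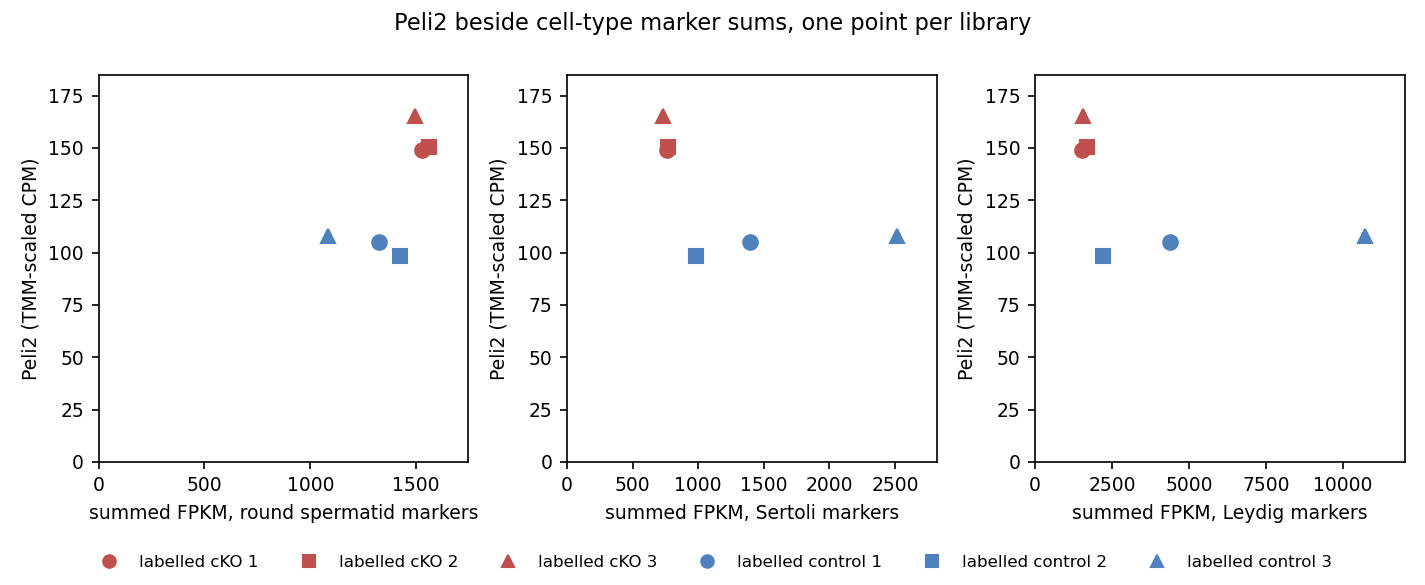
TMM-scaled CPM of Peli2 (vertical axes) against the summed FPKM of round spermatid, Sertoli and Leydig markers (horizontal axes), with 1 point per library and axes from 0. The 3 libraries labelled cKO sit together between 149 and 165 CPM, while those labelled control spread along each marker axis at 98.3 to 108 CPM.

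The remaining macrophage, lymphocyte, myoid and endothelial markers were measured because Pellino signalling is best known from immune cells. Summed over 11 macrophage markers, FPKM was 61.6, 60.9 and 52.5 in the libraries labelled cKO and 137, 62.4 and 268 in those labelled control. All 11 were negative, with a median log2 fold change of -1.42, or -0.80 without control replicate 3. The sum over 7 lymphocyte markers was 4.38 to 5.34 FPKM in the libraries labelled cKO and 4.92 to 4.99 in those labelled control. Myoid sums were 56.9 to 70.9 and 68.9 to 146.6, and endothelial sums 10.2 to 14.2 and 13.7 to 23.7, in the same order, so these overlapped between groups. Median log2 fold changes were -0.66 for myoid and -0.61 for endothelial markers, and -0.29 for the 5 lymphocyte markers tested. Without control replicate 3 the myoid and endothelial medians were -0.39 and -0.40. The part of these cells in the Pellino values was not tested.

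The patterns most like that of Peli2 over the 6 libraries were ranked by Pearson correlation of log2 CPM among 12424 genes with a mean FPKM of at least 1. The 5 nearest were Irx2, an Iroquois homeobox factor (r = 0.99), Fam20a, a secretory-pathway pseudokinase (0.99), Aldh1a2, which makes retinoic acid (0.98), Abhd11, a mitochondrial hydrolase (0.97), and Chtf18, a subunit of a clamp loader for sister chromatid cohesion (0.97). Irx2 stood at 1.33, 1.31 and 1.53 FPKM in the libraries labelled cKO and 0.98, 0.81 and 0.93 in those labelled control. Chtf18 was at 6.28, 7.23 and 7.26 FPKM in the libraries labelled cKO and 4.84, 4.55 and 4.57 in those labelled control. Fam20a and Aldh1a2 shared the shape of the pattern but a smaller size, with log2 fold changes of 0.18 and 0.15. Only 53 of these genes had r above 0.9 with Peli2, against 574 for Peli1 and 84 for Peli3. Nearest to Peli1 were Lage3, Mgme1 and Slc5a6, and nearest to Peli3 Ctf1, Stom and Simc1. All points share the same 6 libraries and their group difference, so these are descriptions.

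Genes of the pathway in which Pellino proteins act mostly had negative fold changes, none past the edgeR threshold. Of 77 genes of IL-1 and Toll-like receptor signalling, 76 were listed and 61 passed the filter on low counts. Among those 61, 50 log2 fold changes were negative and 11 positive, with a median of -0.45, against 50.5% negative and a median of -0.0048 over all 18269 genes. edgeR called 0 of them, as it called 0% of all genes. At an unadjusted p under 0.05, 20 (32.8%) were lower and 1 (1.64%) higher in the libraries labelled cKO, against 18.8% and 8.85% of all genes. Without overlap between groups, 18 (29.5%) were lower, against 19.8% of all genes, and 4 (6.56%) higher, against 18%. DESeq2 called 8 of 60 lower (13.3%), against 7.66% of all genes, and 0 higher, against 0.405%. Dropping control replicate 3 brought the median to -0.24. Dropping control replicate 2, edgeR called 25 of 63 lower and 2 higher, against 20.7% and 11% of all genes. Macrophage, Sertoli and Leydig sums were lower in the same libraries, and their part in this was not tested.

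Ligands and receptors were scarce. Among the ligands, the alarmin Il33 was at 1.48 ± 0.283 FPKM in the libraries labelled cKO and 1.27 ± 0.133 in those labelled control, Il18 at 1.13 ± 0.0808 and 1.42 ± 0.445, and Il1a at 0.647 ± 0.165 and 0.887 ± 0.264, in the same order (SD, n = 3 each). Il1r1, the signalling IL-1 receptor, was at 2.13, 2.32 and 2.03 FPKM in the libraries labelled cKO and 5.15, 3.18 and 13.38 in those labelled control. The groups did not overlap, but the libraries labelled control differed widely among themselves (log2 fold change -1.64, SE 0.47, edgeR adjusted p = 0.166). Sigirr, an inhibitory receptor of the family, was at 1.52 ± 0.0872 FPKM in the libraries labelled cKO and 1.26 ± 0.339 in those labelled control, and the DNA sensor Tlr9 at 0.973 ± 0.0666 and 0.880 ± 0.214. In all, 10 of the 12 receptors tested were negative.

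Adaptors and kinases were mostly negative, at 6 of 7 and 14 of 15 tested, while the most abundant member of each was positive. Irak1, the classic Pellino substrate, was at 3.17, 2.67 and 1.86 FPKM in the libraries labelled cKO and 5.91, 3.18 and 9.83 in those labelled control. The groups barely missed overlap in FPKM but overlapped on TMM-scaled CPM (log2 -1.14, SE 0.40, edgeR adjusted p = 0.166). Irak4, the kinase that activates Irak1, had a log2 fold change of -0.39 (SE 0.20). Irak3, a pseudokinase inhibitor of the pathway and the most abundant kinase-family member here, was the 1 positive kinase, higher without overlap in TMM-scaled CPM, at 18.96, 18.16 and 16.89 FPKM in the libraries labelled cKO and 15.40, 17.74 and 12.36 in those labelled control (log2 0.33, SE 0.15, edgeR adjusted p = 0.197). Tab2, an adaptor of the TAK1 kinase, and Map3k7, which encodes TAK1, had log2 fold changes of -0.36 and -0.22. Of the adaptors, Tollip, a brake on IRAK activation, was likewise higher without overlap (log2 0.22, SE 0.10, edgeR adjusted p = 0.192), at 79.0 ± 1.14 FPKM in the libraries labelled cKO and 72.6 ± 5.61 in those labelled control, the shared adaptor Myd88 at 7.72 ± 0.638 and 8.58 ± 0.928, and the TRAF-binding Tifa at 1.32 ± 0.293 and 2.48 ± 0.615, in the same order (SD, n = 3 each).

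Genes of the ubiquitin role were divided. Ube2n, the E2 enzyme that builds Lys63-linked chains with Pellino and TRAF6, was at 87.45, 88.21 and 91.05 FPKM in the libraries labelled cKO and 71.67, 88.56 and 73.91 in those labelled control. In FPKM replicate 2 labelled control lay within the range of the libraries labelled cKO, but TMM-scaled CPM did not overlap (log2 0.28, SE 0.12, edgeR adjusted p = 0.176). Its partner Ube2v1 was at 29.5 ± 1.74 FPKM in the libraries labelled cKO and 33.8 ± 3.38 in those labelled control, and the E3 ligase Birc2 at 25.4 ± 0.936 and 27.2 ± 1.40, in the same order (SD, n = 3 each). Of 12 genes of this role, 4 were positive and 8 negative.

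Inflammasome, transcription factor and target genes were negative or near 0. Casp1, the caspase that matures IL-1, was at 1.82 ± 0.283 FPKM in the libraries labelled cKO and 2.11 ± 0.516 in those labelled control, and the inflammasome adaptor Pycard at 0.31 ± 0.05 and 0.680 ± 0.511. Nlrp3, the sensor that mouse Peli2 is known to act on, was listed at only 0.0433 ± 0.0306 and 0.0233 ± 0.0208 FPKM, in the same order, and was too low to test. Rela, the main NF-kB subunit, was at 16.2 ± 0.627 FPKM in the libraries labelled cKO and 22.1 ± 4.69 in those labelled control (log2 -0.34, SE 0.15, edgeR adjusted p = 0.182), while Irf3 and Nfkb1 had log2 fold changes of 0.0026 and -0.095. Nfkbia, the inhibitor that NF-kB itself induces, was at 7.95, 7.71 and 7.45 FPKM in the libraries labelled cKO and 14.99, 7.94 and 24.52 in those labelled control. Replicate 2 labelled control lay within the range of the libraries labelled cKO (log2 -0.93, SE 0.35, edgeR adjusted p = 0.167). Cxcl1 and Cxcl10, chemokine targets, were below 0.4 FPKM on average in both groups and too low to test.

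**Figure D4:**
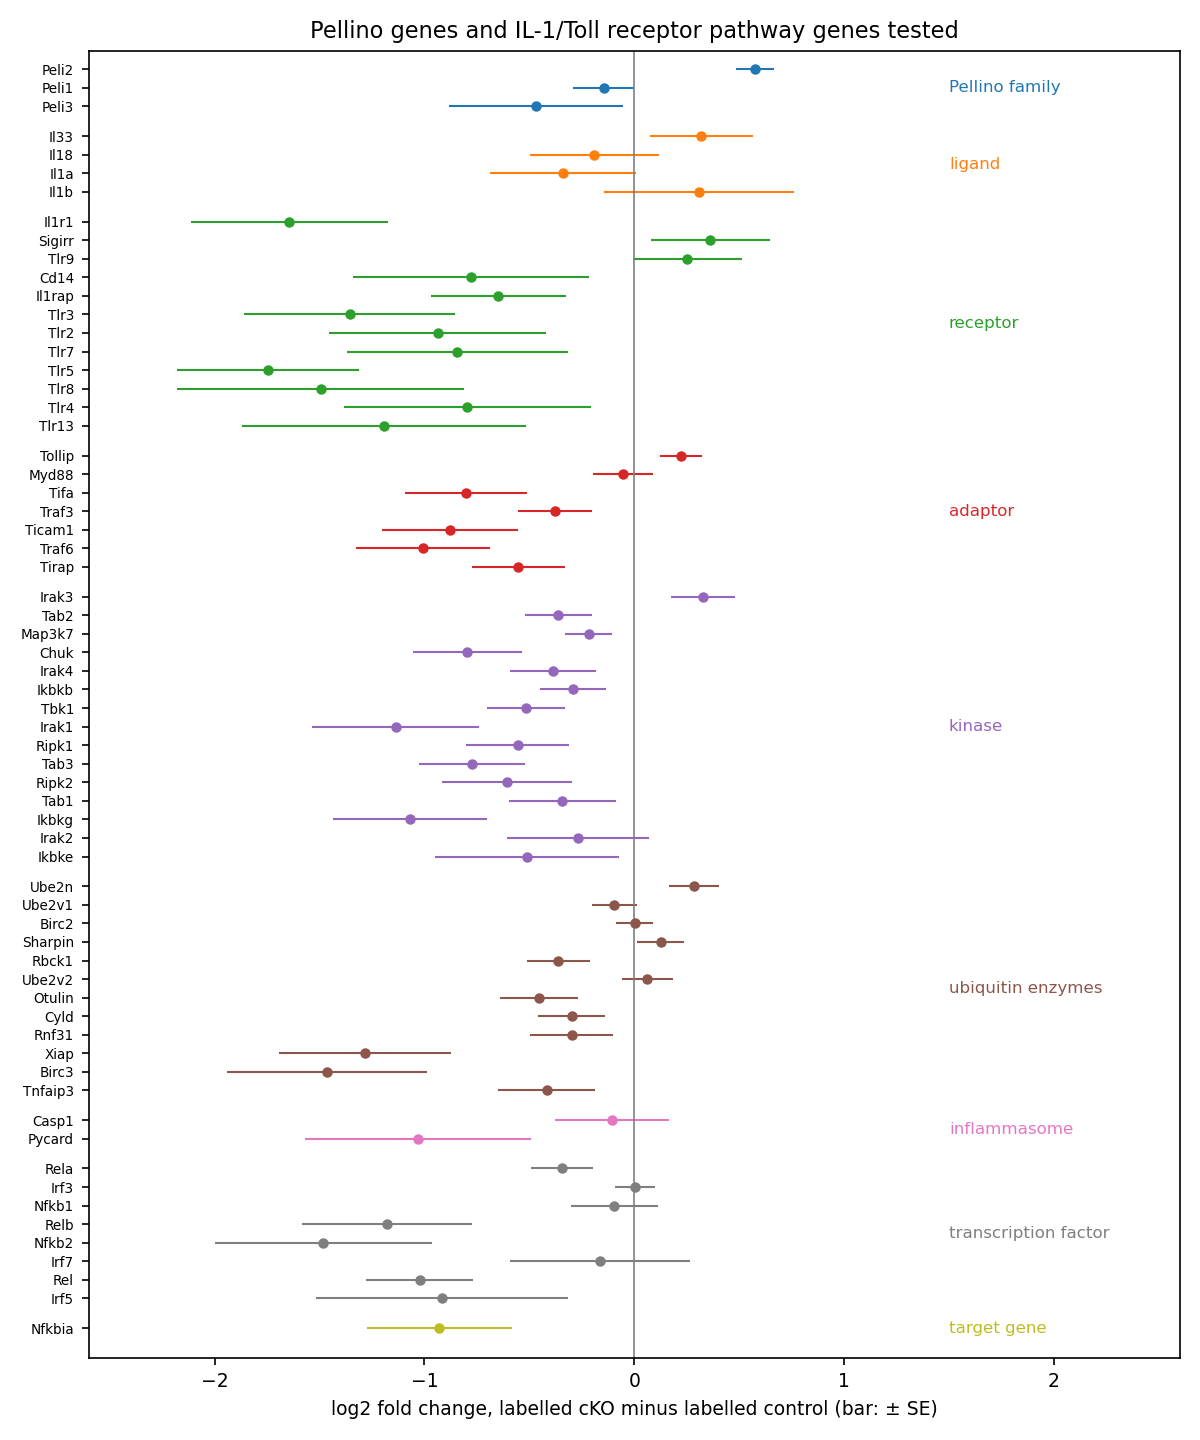
Log2 fold change, labelled cKO minus labelled control, of the 3 Pellino genes and the 61 pathway genes tested, grouped by role and ordered within a role by mean FPKM, with bars of ± 1 SE from edgeR. Peli2 lies at 0.58, while 50 of the 61 pathway genes lie below 0.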

How the data were processed

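Poly(A) RNA of 6 testis libraries was analysed. Per the file headers, each deposited table gives a length, an expected count and an FPKM value per gene. The deposited expected count is unnormalized, the authors scaled FPKM to length and depth, and the length is a deposited gene value that can differ between libraries. The submitters' processing notes name bcl2fastq 2.16, HISAT2 2.0.4, Bowtie2 2.2.5, RSEM, DESeq2 and build mm10, with no role or order. Genes absent from 1 table took the value 0 there. Whether counting used strand is not given here.

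After rounding, expected counts entered edgeR 4.0.16 (R 4.3.3): filterByExpr defaults (minimum count 10, minimum total count 15; 18269 genes kept), TMM, the quasi-likelihood F-test and Benjamini-Hochberg adjustment at 0.05. The SE is the log2 fold change divided by the square root of F. The code was tested on simulated data. Samples were grouped by title. Coordinates came from RefSeq GRCm38.p6, whose primary assembly mm10 shares.

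Members and lists were chosen with earlier results of these data known. Genes named were the members, L3mbtl2, the nearest listed neighbours, the genes most alike by correlation (log2 CPM with prior count 2; clone and predicted names left out) and the 3 pathway genes of highest mean FPKM per role. Irak1 and Irak4 were named beyond that rule, and the genes DESeq2 called after their values were seen. Alternatives were DESeq2 1.42.0, its size factors, library totals, limma 3.58.1 on log2 FPKM with pseudocounts of 1 and 0.1 (genes reaching FPKM 1 in 3 or more libraries), an unfiltered fit, at least 5 CPM in at least 3 libraries, each library left out, and a replicate block.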

Additional observations from a re-analysis of the deposited data

How the results depend on the processing

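Peli2 was higher in the libraries labelled cKO under each of 14 other settings, with log2 fold changes of 0.48 to 0.64 (0.53 to 0.61 with 1 library left out). Since the gene was put forward on this contrast in these libraries, its direction was to be had beforehand and nothing is read from it. The 0.48 came from library totals, a scaling that moved the median of all genes by -0.10. Relative to spermatocyte, round spermatid and elongating spermatid markers, chosen after seeing the data, the Peli2 log2 fold change was 0.36, 0.31 and 0.29. These 3 values set TMM-scaled CPM over FPKM sums without TMM scaling, and so depend on that scaling. The Peli2 to Peli1 ratio differed by 0.76 to 0.95 log2 units with 1 library left out. Peli1 stayed negative and did not pass under 14 alternatives (adjusted p 0.295 to 0.775; log2 fold change -0.20 to -0.07 with 1 library left out), nor did Peli3 under 11 (adjusted p 0.367 to 0.804; log2 fold change -0.88 to -0.23 with 1 library left out), which the stricter filter and both limma fits left out.

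How many genes were called depended on the tool and on single libraries. edgeR called 0 higher and 0 lower; with 1 library left out it called 0 to 2049 higher and 0 to 3851 lower, the most without the library labelled control replicate 2. Smaller counts of 1, 2 and 3 higher arose without cKO replicate 3, control replicate 3 and cKO replicate 2. DESeq2 called 72 higher and 1363 lower, and limma 1 higher at either pseudocount. Of the pathway, 0 to 2 members were called higher and 0 to 25 lower with 1 library left out (2 and 25 of 63 without control replicate 2), and DESeq2 called 8 lower: Il1r1, Traf6, Chuk, Irak1, Ikbkg, Nfkb2, Xiap and Birc3. The cause was not tested. Deviations from the group means correlated at r = 0.04, -0.0067 and -0.04 between same-numbered libraries, and at -0.066 to 0.074 between the others. With 3 libraries per mean this cannot show whether same-numbered libraries were paired, and their titles share only a number. With the replicate block edgeR called 0 genes, and the log2 fold changes were 0.58 for Peli2, -0.15 for Peli1 and -0.50 for Peli3. Peli3 had only 9 to 25 counts a library.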
